A study of Mus musculus with 10 samples.

Results

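The genes described here shape chromosomes and the nucleus. They comprise 37 genes of the cohesin, condensin and SMC5/6 complexes, type II topoisomerases, the perichromosomal layer, lamins, the lamin B receptor, HP1 proteins, HMGB proteins and a histone chaperone. They were chosen by symbol and not by a threshold on their values, but with earlier results of these data known. All 37 were found among the 48795 genes of the count table and among the 12859 genes tested. RNA was sequenced from NSC/NPCs, the neural stem cells and progenitors that grow out of the subependymal zone (SEZ), here of 10-week-old mice. Wild-type (WT) cells and cells labelled p27KO, from mice mutant for Cdkn1b, the gene of the CDK inhibitor p27, were each collected at 2 stages. Neurospheres, which are floating aggregates of proliferating cells, were taken after 3 days in vitro (DIV) with 20 ng/ml EGF and 10 ng/ml FGF (3 WT and 2 p27KO libraries). Cells at 2 + 1 DIV had attached to Matrigel for 2 days with FGF and were then kept for 24 h without mitogens and with 2% serum (3 WT and 2 p27KO libraries). All 4 groups therefore hold cells selected by growth in mitogens. Serum was present at 2 + 1 DIV in both genotypes and in no neurosphere culture.

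Cohesin is a ring that holds sister chromatids together from replication to anaphase and also extrudes the DNA loops of interphase chromatin. Nipbl and Mau2 load it, Wapl with Pds5a or Pds5b releases it, and the acetyltransferases Esco1 and Esco2 with sororin (Cdca5) stabilise it, Esco2 and sororin acting in S phase. Condensins I and II share the subunits Smc2 and Smc4 and compact chromosomes in mitosis together with topoisomerase IIα (Top2a), while Ki67 (Mki67) coats mitotic chromosomes. Lamins, the lamin B receptor and HP1 proteins hold and organise heterochromatin at the nuclear envelope and elsewhere.

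Library totals ranged from 19190068 to 25291674 counts, and no library was a copy of another. The study's methods call the libraries of a group biological replicates, but the labels do not say which animals they came from. The p-values therefore measure the spread between these libraries, which may not be that between animals. In the records labelled p27KO, another description field names WT cells, and p27KO below means the libraries so labelled. Cdkn1b was counted at 90.7 to 114 CPM (counts relative to the library total) in p27KO and 103 to 113 CPM in WT neurospheres, and at 137 to 140 CPM in p27KO and 205 to 209 CPM in WT cells at 2 + 1 DIV. The deleted stretch is not given in the sources used here, so that counts of the whole gene do not check the label. Xist was at most 2.57 CPM in WT and at least 2258 CPM in p27KO libraries, while 4 Y-linked genes summed to at least 189 CPM in WT and at most 0.585 CPM in p27KO libraries. Genotype and sex therefore cannot be told apart, and Smc1a, Stag2 and Hmgb3 are X-linked. Most marker lists moved with the stage, and their members did so unequally. The 5 neural stem and progenitor markers summed to 4394 to 6651 CPM over all groups with none at 0, but the mean of Nes went from 1732 to 194.9 CPM in WT and from 1605 to 198.2 CPM in p27KO cells, while that of Slc1a3 went from 768 to 2386 CPM and from 626 to 1967 CPM. The 3 astrocyte markers summed to 11.4 to 33.8 CPM in neurospheres of both genotypes, to 331 to 410 CPM in WT and to 517 to 603 CPM in p27KO at 2 + 1 DIV. Gfap and Aqp4 carried this difference, since the mean of S100b went from 19.1 to 12.4 CPM in WT and from 14.8 to 6.80 CPM in p27KO cells. The 4 neuroblast and neuron markers went from 3.47 to 7.93 CPM in neurospheres to 22.3 to 70.5 CPM at 2 + 1 DIV, mostly through Dcx. Of the 2 ependymal markers, Foxj1 went from means of 16.7 and 16.5 CPM in WT and p27KO neurospheres to 90.9 and 87.5 CPM, and Ccdc153 had means of at most 0.236 CPM in all groups. The 3 fibroblast and pericyte markers went from 0.331 to 0.834 CPM to 3.44 to 10.1 CPM, mostly through Pdgfrb, with Dcn at 0 in neurospheres. The 4 oligodendroglial markers summed to 56.6 to 163 CPM over all groups, with the mean of Cspg4 lower and that of Pdgfra higher at 2 + 1 DIV and with Sox10 at 0 in the p27KO neurospheres. The 3 microglia and leukocyte markers reached at most 0.135 CPM and the 3 endothelial markers at most 0.443 CPM, with Cldn5 and Cdh5 at 0 in every library. Their part in the results below was not tested.

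On leaving the neurosphere state, WT cells lost transcripts of most of these genes, and the losses were unequal between subunits of the same complex. Between WT neurospheres and 2 + 1 DIV, 26 of the 37 genes fell, 3 rose (Nipbl, Mau2 and Esco1) and 8 did not pass. The test was the quasi-likelihood F test of edgeR, with Benjamini-Hochberg adjusted p-values over the 12859 genes and a threshold of 0.05. Of all genes tested, 33.9% fell and 33.5% rose in the same comparison. The median log2 fold change was -0.81 over the 37 genes and -0.0019 over all genes tested. In bulk RNA, fewer cells that express a gene and less RNA per cell cannot be told apart.

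**Figure D1:**
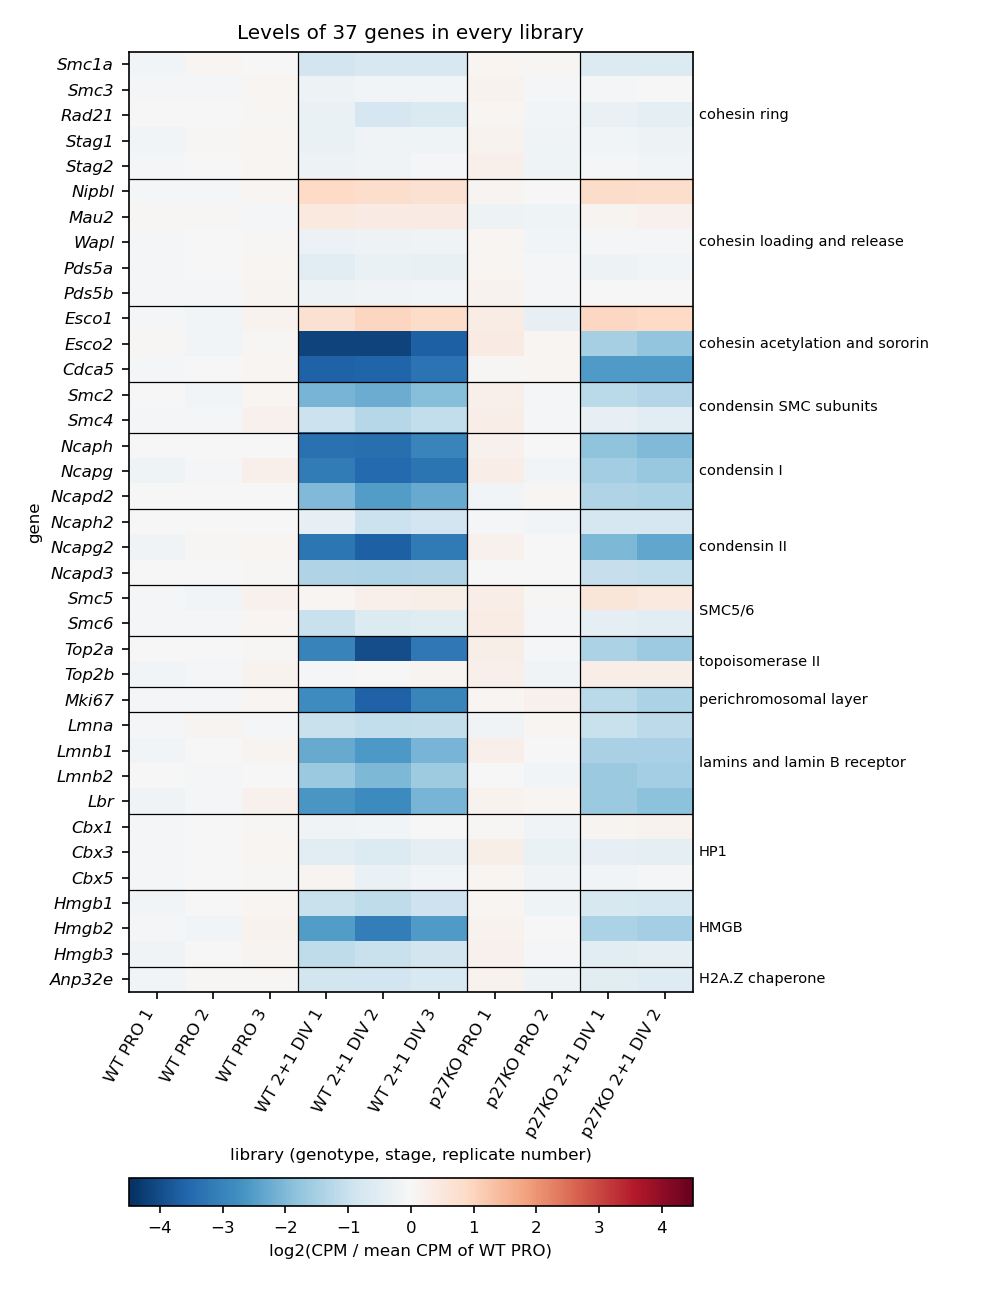
Each cell of the map gives a gene's level in a library as the log2 ratio of its CPM to the mean of the 3 WT neurosphere libraries (PRO), with genes in rows by role and libraries in columns by genotype, stage and replicate number. The deepest losses at WT 2 + 1 DIV lie in Esco2, Cdca5, Ncaph, Ncapg, Ncapg2, Top2a and Mki67, and the same rows are paler in the p27KO libraries of that stage, while Nipbl and Esco1 are red at 2 + 1 DIV in both genotypes.

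Within cohesin, the subunits of the ring kept most of their transcript. Rad21, the subunit cut by separase, was present at 480.1, 477 and 504 CPM in WT neurospheres and at 394, 292 and 313 CPM at 2 + 1 DIV, which fell by 0.56 on the log2 scale (SE 0.11, adjusted p = 0.00131). Log2 fold changes are given with the standard error of the fit throughout. Smc1a, one of the paired arms of the ring, went from 229, 270.3 and 257 CPM to 140.1, 151 and 153 CPM (-0.78 ± 0.079, adjusted p = 1.69e-05) and kept 58.8% of its mean. Neither gene's groups overlapped, and both fell. The other arm, Smc3, was at 179, 180.2 and 197 CPM in neurospheres and at 159, 170 and 169.6 CPM afterwards. Its log2 fold change of -0.17 ± 0.082 did not pass the test (adjusted p = 0.0958). Only the filter of at least 1 CPM in at least 4 libraries let Smc3 pass (adjusted p = 0.0495). All 3 libraries of the later stage were below all 3 of the earlier one, as for Stag1 and Stag2, which did not pass in the main fit either. Stag1 and Stag2 are alternative subunits that influence where cohesin sits. Stag1 was at 128, 145 and 151 CPM in WT neurospheres and at 115, 126 and 124 CPM at 2 + 1 DIV (-0.23 ± 0.095, adjusted p = 0.0539). It passed in the fit with a replicate block (adjusted p = 0.0257) and with DESeq2 in place of edgeR (adjusted p = 0.0475). It also passed with 2 other filters on low counts (adjusted p = 0.0316 and 0.0181) and with only the groups compared (adjusted p = 0.0493). Over all alternatives the adjusted p of Stag1 ran from 0.0181 to 0.176. Stag2 was at 263, 281 and 296 CPM and then at 237, 252 and 260.3 CPM (-0.18 ± 0.10, adjusted p = 0.155). Stag2 was the more abundant per kb of exon in every library, Stag1 amounting to 0.355 of it in WT neurospheres and to 0.342 at 2 + 1 DIV.

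Both cohesin loaders rose. Nipbl, whose protein activates the cohesin ATPase, was at 181, 181 and 197 CPM in WT neurospheres and at 343, 322 and 297 CPM at 2 + 1 DIV, and its log2 fold change was 0.77 ± 0.081 (adjusted p = 2.07e-05). Mau2, its partner, rose from 75.4, 75.3 and 69.6 CPM to 99.5, 94.6 and 95.9 CPM, a smaller change of 0.39 ± 0.066 (adjusted p = 0.00054). For both, every library at 2 + 1 DIV was above every neurosphere library. The release factors moved the other way or did not pass. Wapl fell by 0.23 on the log2 scale (SE 0.069, adjusted p = 0.0145) and Pds5a by 0.37 (SE 0.080, adjusted p = 0.00239), while Pds5b was at 184, 183 and 206 CPM and at 161, 169 and 175 CPM (-0.19 ± 0.079, adjusted p = 0.0539). Pds5b did pass with DESeq2 (adjusted p = 0.0437) and with 2 other filters on low counts (adjusted p = 0.0276 and 0.029). Over all alternatives its adjusted p ran from 0.0276 to 0.1996. Wapl no longer passed without WT neurosphere library 2 or 3 or WT 2 + 1 DIV library 1 (adjusted p = 0.0526, 0.0515 and 0.0586; 0.00451 to 0.0586 over all alternatives).

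The 2 cohesin acetyltransferases went in opposite directions. Esco2 (ENSMUSG00000022034, chr14:65819038-65833994, GRCm38) was at 38.8, 34.6 and 38.3 CPM in WT neurospheres and at 2.09, 2.07 and 2.93 CPM at 2 + 1 DIV. It was left with 6.35% of its neurosphere mean, the lowest share among the 37 genes, at a log2 fold change of -3.98 ± 0.16 (adjusted p = 8.12e-08). Esco1, which acetylates cohesin independently of replication, rose from 21.5, 20.9 and 25.1 CPM to 36.1, 44.1 and 39.8 CPM, or by 0.82 ± 0.16 (adjusted p = 0.00132). Per kb of exon, the ratio of Esco2 to Esco1 thereby went from 1.39, 1.27 and 1.17 in WT neurospheres to 0.0444, 0.0361 and 0.0564 at 2 + 1 DIV. Sororin followed Esco2: Cdca5 fell from 22.3, 23.9 and 25.7 CPM to 1.93, 1.99 and 2.41 CPM, which is 8.81% of its mean and a log2 fold change of -3.51 ± 0.12 (adjusted p = 4.65e-08). Esco2 and Cdca5 were the 2 cohesin genes with the largest falls in WT cells, while each ring subunit kept at least 58.8% of its neurosphere mean.

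All 8 condensin genes fell in WT cells, to very different degrees. In condensin I, the kleisin Ncaph (ENSMUSG00000034906, chr2:127103809-127133954) was at 108, 112 and 111 CPM in WT neurospheres and at 10.8, 10.4 and 14.2 CPM at 2 + 1 DIV (-3.23 ± 0.12, adjusted p = 5.84e-08). The HEAT-repeat subunit Ncapg (ENSMUSG00000015880, chr5:45669919-45700546) went from 65.2, 73 and 87.3 CPM to 8.4, 6.67 and 7.71 CPM (-3.32 ± 0.15, adjusted p = 1.19e-07), and Ncapd2 from 271, 278 and 273 CPM to 68.5, 48.2 and 56.7 CPM (-2.26 ± 0.12, adjusted p = 2.6e-07). At 2 + 1 DIV, 10.7% of the neurosphere mean was left of Ncaph and 10.1% of Ncapg, against 21.1% of Ncapd2. Within condensin II, which works inside the nucleus already in prophase, the counterparts were spread more widely. Ncapg2 fell from 113, 132 and 134 CPM to 13.4, 9.86 and 14 CPM (-3.36 ± 0.15, adjusted p = 1.05e-07), about as far as Ncapg. Ncapd3 kept 39.2% of its mean (-1.36 ± 0.069, adjusted p = 2.16e-07) and Ncaph2 kept 61.4%, with 101, 104 and 102 CPM in neurospheres against 80.1, 52.3 and 56.1 CPM (-0.72 ± 0.13, adjusted p = 0.000933). The ratio of Ncaph to Ncaph2 per kb of exon was 1.05 in WT neurospheres and 0.191 at 2 + 1 DIV, whereas that of Ncapg to Ncapg2 was 0.834 and 0.87. The shared ATPase arms also parted. Smc2 went from 189.6, 172 and 200.1 CPM to 43.5, 40 and 49 CPM (-2.09 ± 0.10, adjusted p = 1.93e-07) and Smc4 from 162, 161 and 196 CPM to 88.5, 70.5 and 80.4 CPM (-1.13 ± 0.12, adjusted p = 2.51e-05). Smc4 and Smc2, whose proteins form a dimer, had a ratio per kb of exon of 0.9, 0.989 and 1.03 in WT neurospheres and of 2.14, 1.85 and 1.72 at 2 + 1 DIV.

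SMC5/6, the third complex of the family, which acts in DNA repair and replication, was split between its arms. Smc6 fell from 103, 103 and 114 CPM to 53.4, 70.2 and 72.4 CPM (-0.71 ± 0.13, adjusted p = 0.000859), and Smc5 was at 83, 80.6 and 100.5 CPM and then at 93.1, 102 and 106 CPM (0.18 ± 0.11, adjusted p = 0.165). The groups of Smc5 overlapped, and those of Smc6 did not.

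The 2 type II topoisomerases, which pass one DNA duplex through another and share their catalytic core, behaved differently. Top2a, needed for the decatenation and condensation of mitotic chromosomes, was at 666, 670.5 and 709.8 CPM in WT neurospheres and at 85.9, 42.8 and 73.3 CPM at 2 + 1 DIV (-3.36 ± 0.22, adjusted p = 1.42e-06). Top2b, the form that non-dividing cells also use in transcription, was at 358, 378 and 439 CPM and at 364, 396 and 422 CPM (-0.00068 ± 0.11, adjusted p = 0.996), with overlapping groups; its sign depended on the scaling. The level of Top2a per kb of exon was thus 3.01, 2.88 and 2.62 times that of Top2b in the WT neurosphere libraries, and 0.382, 0.175 and 0.282 times at 2 + 1 DIV. Mki67 (ENSMUSG00000031004, chr7:135689784-135716361) went with Top2a, from 821, 800 and 905 CPM to 118, 67.6 and 107 CPM (-3.13 ± 0.18, adjusted p = 5.5e-07). In WT 2 + 1 DIV library 2, Top2a and Mki67 were the lowest of the group.

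**Figure D2:**
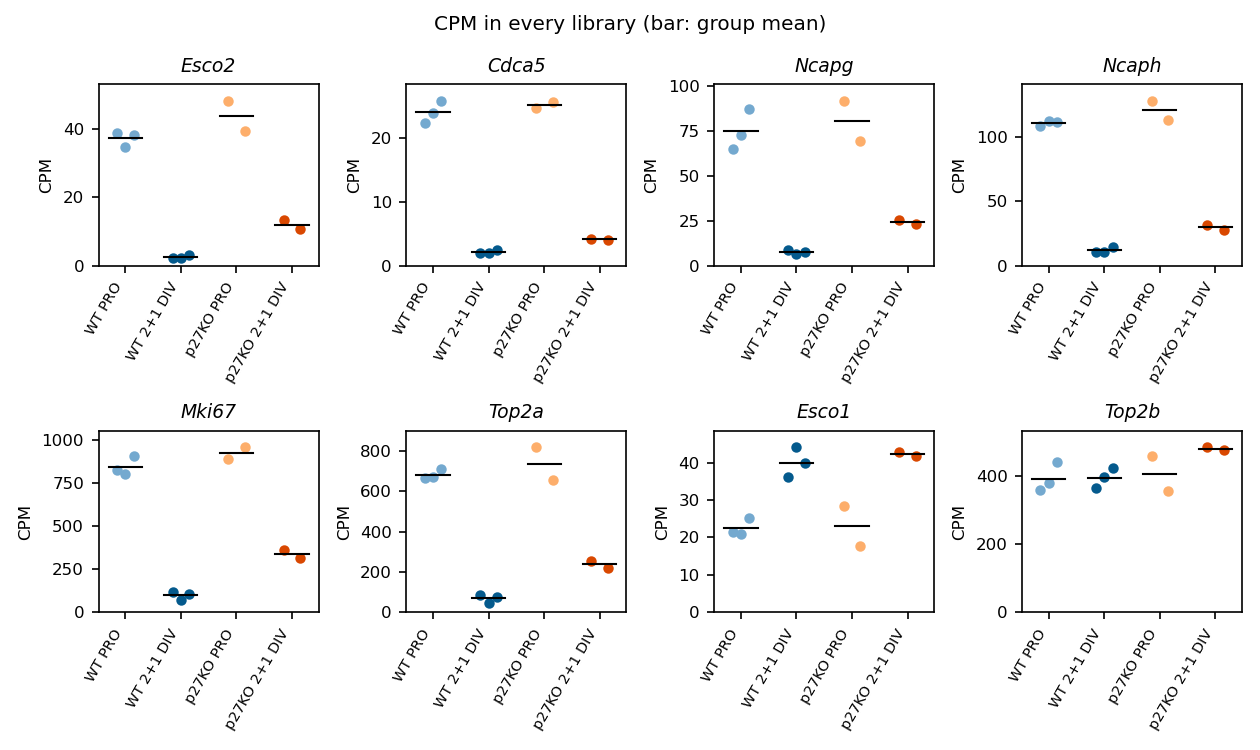
Points give the CPM of 8 genes in each library, with genotype and stage on the x axis and a bar at each group mean. Esco2, Cdca5, Ncapg, Ncaph, Mki67 and Top2a are low at 2 + 1 DIV with the p27KO libraries above the WT libraries, Esco1 is higher at 2 + 1 DIV in both genotypes, and Top2b stays between 354 and 483 CPM in all libraries.

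At the nuclear envelope, all 3 lamin genes and the lamin B receptor fell. Lmnb1, the B-type lamin that is lost in senescent cells, went from 319.6, 352 and 386 CPM in WT neurospheres to 72.9, 58.2 and 82 CPM at 2 + 1 DIV (-2.32 ± 0.12, adjusted p = 2.86e-07), and Lmnb2, the other B-type lamin, from 59.4, 55.9 and 59.1 CPM to 18.3, 14.4 and 19 CPM (-1.77 ± 0.10, adjusted p = 5.14e-07). Lbr, a tether of heterochromatin in the inner nuclear membrane, fell from 81.5, 86.5 and 104 CPM to 14.8, 12.6 and 21.5 CPM (-2.49 ± 0.18, adjusted p = 1.92e-06). Lmna, the A-type lamin of stiff and differentiated tissues, was scarce throughout: it had the lowest level per kb of exon of the 37 genes in WT neurospheres (3.07 CPM per kb) and fell from 17.1, 19.7 and 16.9 CPM to 9.01, 8.25 and 8.58 CPM (-1.07 ± 0.12, adjusted p = 3.19e-05). Lmnb1 stood at 36.7, 35.2 and 45 times Lmna per kb in WT neurospheres and at 15.9, 13.9 and 18.8 times at 2 + 1 DIV, so that B-type lamin transcripts stayed in excess at both stages.

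Among heterochromatin and chromatin-bending proteins the HP1 genes were the steadiest. Cbx5 (HP1α) was at 1069, 1113 and 1161 CPM in WT neurospheres and 1208, 915 and 1016 CPM at 2 + 1 DIV, and Cbx1 (HP1β) at 101, 105 and 108 CPM and 93.4, 95 and 104 CPM. Neither passed the test (-0.10 ± 0.10 and -0.11 ± 0.072, adjusted p = 0.403 and 0.197), and both pairs of groups overlapped. Cbx3 (HP1γ) fell, at -0.52 ± 0.12 (adjusted p = 0.00431). All 3 HMGB genes fell: Hmgb2, the form tied to proliferation, from 217, 202 and 248 CPM to 39.1, 25.9 and 37.9 CPM (-2.71 ± 0.15, adjusted p = 3.41e-07), Hmgb1 to 49.3% of its mean (-1.03 ± 0.095, adjusted p = 8.41e-06) and Hmgb3 to 50.5% (-0.99 ± 0.11, adjusted p = 2.29e-05). Anp32e, a chaperone that removes the histone variant H2A.Z, kept 57.5% (-0.81 ± 0.10, adjusted p = 6.84e-05) and had the highest level per kb of the 37 genes in WT neurospheres (134 CPM per kb). Pseudogene copies of Hmgb1, Hmgb3 and Cbx3 may share reads with them, so that the levels of these 3 genes are uncertain. Sharing of reads was not tested for these or for the other genes.

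In p27KO cells nearly the same genes passed in the same directions. From p27KO neurospheres to 2 + 1 DIV, 24 of the 37 genes fell, 3 rose and 10 did not pass, against 30.2% of all genes tested that fell and 27.5% that rose. The 24 were all among the 26 that fell in WT, where Pds5a and Wapl were the other two, and the 3 that rose were again Nipbl (0.72 ± 0.10, adjusted p = 0.000199), Mau2 (0.33 ± 0.081, adjusted p = 0.00573) and Esco1 (0.86 ± 0.20, adjusted p = 0.0044). The median log2 fold change over the 37 genes was -0.62, and -0.029 over all genes tested. Nipbl was at 204 and 182 CPM in p27KO neurospheres and 327 and 322 CPM at 2 + 1 DIV, and Esco1 at 28.4 and 17.6 and 42.9 and 41.7 CPM, with no overlap of the stages. Pds5a and Wapl changed by -0.22 ± 0.10 and -0.10 ± 0.085 (adjusted p = 0.0791 and 0.343), with Wapl overlapping between the stages. Pds5a passed with the filter of at least 1 CPM in at least 4 libraries (adjusted p = 0.0479). Smc5 was at 109.6 and 90.3 CPM and then at 129.8 and 120.2 CPM (0.30 ± 0.13, adjusted p = 0.0758) and passed with the replicate block (adjusted p = 0.0369; 0.0369 to 0.335 over all alternatives). Cbx3 was at 446 and 297 CPM in p27KO neurosphere libraries 1 and 2. Without library 1 the median was -0.43, and Rad21, Smc4, Smc6 and Cbx3 no longer passed (adjusted p = 0.171, 0.0781, 0.0670 and 0.308), with the change of Cbx3 going from -0.43 to -0.14. Rad21 and Cbx3 were also lost without WT neurosphere library 2 and without either p27KO 2 + 1 DIV library, and Smc4 and Smc6 without p27KO 2 + 1 DIV library 2. Cbx3 was lost with only the groups compared (adjusted p = 0.0988), and Mau2 with no filter on low counts (0.27, adjusted p = 0.0837; 0.000113 to 0.0837 over all alternatives).

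The genes that parted most from WT in this change were a cohesion gene, condensin subunits, Top2a and Mki67. Of Esco2, 27.4% of the neurosphere mean was left in p27KO cells at 2 + 1 DIV, of Ncapg 29.9%, of Ncaph 24.7%, of Top2a 32.3% and of Mki67 36.5%, each of them at most 11.6% in WT. Whether the 2 genotypes changed unequally was tested by an interaction term. It passed for 4 of the 37 genes, each with the smaller fall in p27KO cells, where 0.389% of all genes tested passed in that direction. These were Esco2, with an interaction of 2.09 ± 0.23 on the log2 scale (adjusted p = 0.0217), Ncapg with 1.56 ± 0.22 (adjusted p = 0.023), Mki67 with 1.65 ± 0.27 (adjusted p = 0.0392) and Ncaph with 1.19 ± 0.17 (adjusted p = 0.023). Top2a, with 1.70 ± 0.32 (adjusted p = 0.0847), did not pass. With the replicate block, Mki67 no longer passed (1.68, adjusted p = 0.0582; 3.46e-07 to 0.228 over all alternatives), but it passed when the p27KO numbers in the block were crossed, a choice made after seeing the data. Hmgb2 did pass with the block (1.14, adjusted p = 0.0458; 0.000289 to 0.431 over all alternatives) and not without it (1.12 ± 0.22, adjusted p = 0.0875). Without any one of WT neurosphere libraries 2 and 3 or of the 4 p27KO libraries, none of the 37 genes passed by edgeR, and none of all genes tested did, with 408 to 1046 genes at an unadjusted p under 0.05. Without WT neurosphere library 1, Esco2 and Ncapg alone passed. Mki67 was also lost without WT 2 + 1 DIV library 3 (1.71, adjusted p = 0.0658). Whichever library was left out, the interactions of the 4 genes stayed between 1.93 and 2.27 (Esco2), 1.39 and 1.75 (Ncapg), 1.45 and 1.80 (Mki67) and 1.09 and 1.34 (Ncaph). DESeq2 called 11 of the 37, the same 4 with Cdca5, Smc2, Ncapd2, Ncapg2, Top2a, Lmnb1 and Hmgb2. DESeq2 also called more of all 12859 genes, 157 (153 of them positive) against 50 by edgeR. The interaction was positive for 33 of the 37 genes, with a median of 0.22 against -0.0086 over all genes tested, and among the 24 genes not named in the next comparison it lay between -0.051 (Mau2) and 0.58 (Lbr).

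**Figure D3:**
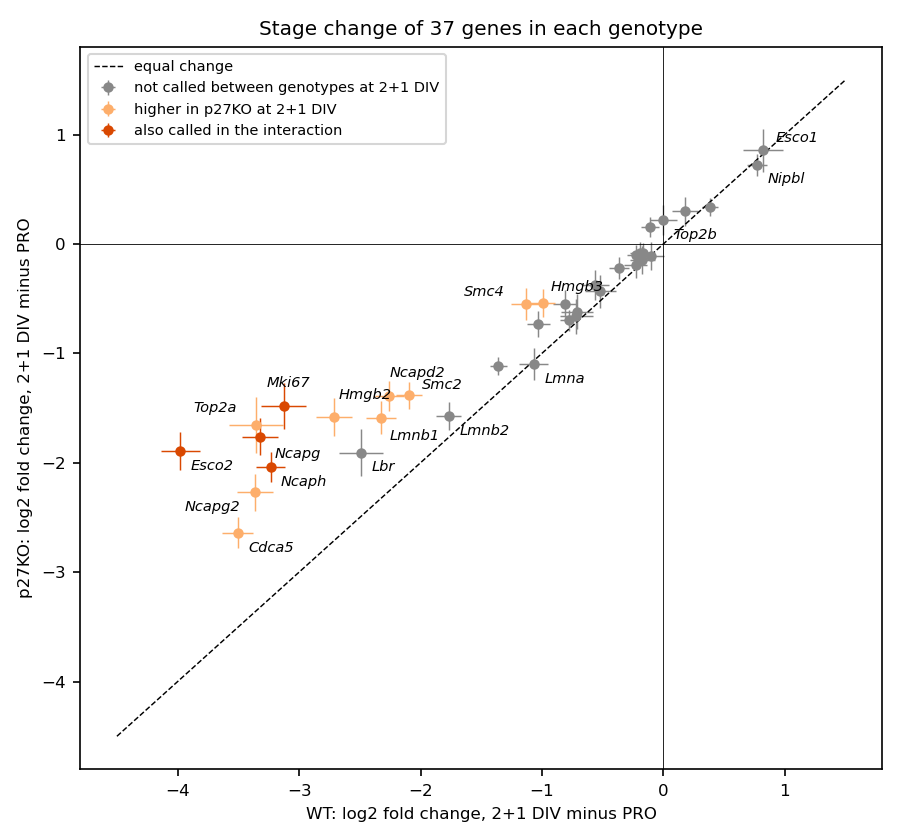
The fitted log2 fold change from neurospheres to 2 + 1 DIV is shown in WT cells (x axis) and in p27KO cells (y axis) for the 37 genes, with standard errors as bars and a dashed line of equal change. Genes near the upper right, such as Nipbl and Esco1, lie close to the line, and the genes with the deepest falls in WT lie above it, Esco2 farthest at -3.98 in WT and -1.89 in p27KO.

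Compared directly at 2 + 1 DIV, p27KO cells held more transcript of 13 of the 37 genes than WT cells and less of none, where 1.91% of all genes tested were higher and 0.124% lower. The median difference was 0.28 over the 37 genes and -0.015 over all genes tested. This comparison shares its libraries with the interaction. The largest difference was in Esco2, at 2.36 CPM ± 0.489 (SD, n = 3) in WT and 12 CPM ± 1.68 (SD, n = 2) in p27KO (libraries at 13.2 and 10.8 CPM), a log2 difference of 2.35 ± 0.17 (adjusted p = 0.00033). Cdca5 stood at 4.12 and 4.05 CPM in the p27KO libraries, a fitted fold of 1.95 over WT (0.96 ± 0.14, adjusted p = 0.00567). The ring, the loaders and the release factors did not pass, with differences from -0.23 (Mau2) to 0.21 (Rad21).

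Condensin contributed 6 of the 13 genes. Ncapg was at 25.2 and 23.1 CPM in p27KO cells against 8.4, 6.67 and 7.71 CPM in WT (1.69 ± 0.16, adjusted p = 0.000658), and Ncaph at 31.4 and 27.9 CPM against 10.8, 10.4 and 14.2 CPM (1.34 ± 0.12, adjusted p = 0.000658). Ncapd2 stood at 106 and 103 CPM (0.87 ± 0.13, adjusted p = 0.00581), so that all of the condensin I subunits were higher. In condensin II only Ncapg2 passed by edgeR, at 31.4 and 25.2 CPM (1.21 ± 0.15, adjusted p = 0.00307), while Ncapd3 was at 34.3 and 32.9 CPM and Ncaph2 at 61.3 and 61 CPM (adjusted p = 0.115 for Ncapd3 and 0.959 for Ncaph2). DESeq2 called Ncapd3 as well. The shared arms Smc2, at 80.6 and 74.4 CPM (0.83 ± 0.11, adjusted p = 0.00429), and Smc4, at 134 and 125 CPM (0.72 ± 0.13, adjusted p = 0.0238), were higher as well. For all 6, both p27KO libraries were above all 3 WT libraries. This was not particular to them, since it also held for genes that did not pass, such as Smc1a, Smc3 and Wapl. How many of all genes tested are separated in this way was not counted.

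The remaining 5 genes come from other structures. Top2a was at 256 and 220.2 CPM in p27KO cells at 2 + 1 DIV (1.84 ± 0.23, adjusted p = 0.00299) and Mki67 at 360.4 and 313 CPM (1.81 ± 0.19, adjusted p = 0.00112), fitted folds of 3.58 and 3.5 over WT. Lmnb1 stood at 129 and 128 CPM, a fitted fold of 1.83 over WT (0.87 ± 0.13, adjusted p = 0.00722), and was the only lamin to pass. Lbr, at 28.5 and 25.3 CPM, did not (0.74 ± 0.19, adjusted p = 0.106), but did with the replicate block (0.77, adjusted p = 0.0189). DESeq2 called Lbr too, and it passed without WT 2 + 1 DIV library 3 (0.99, adjusted p = 0.0105). Hmgb2 was at 82.7 and 76.8 CPM (1.24 ± 0.16, adjusted p = 0.00299) and Hmgb3, which is X-linked, at 105 and 110.5 CPM (0.55 ± 0.12, adjusted p = 0.0453). Without p27KO 2 + 1 DIV library 1, 7 of the 13 genes passed (Esco2, Ncapg, Ncaph, Ncapg2, Top2a, Mki67 and Hmgb2), and 3 passed (Esco2, Ncapg and Ncaph) where the fit held only the libraries of this stage. Without p27KO 2 + 1 DIV library 2, Hmgb3, Smc4 and Lmnb1 no longer passed. Smc4 was also lost without WT 2 + 1 DIV library 2 or 3, and Hmgb3 without WT neurosphere library 2 or 3 or WT 2 + 1 DIV library 1 or 2 (adjusted p from 0.00106 to 0.305 over all alternatives).

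**Figure D4:**
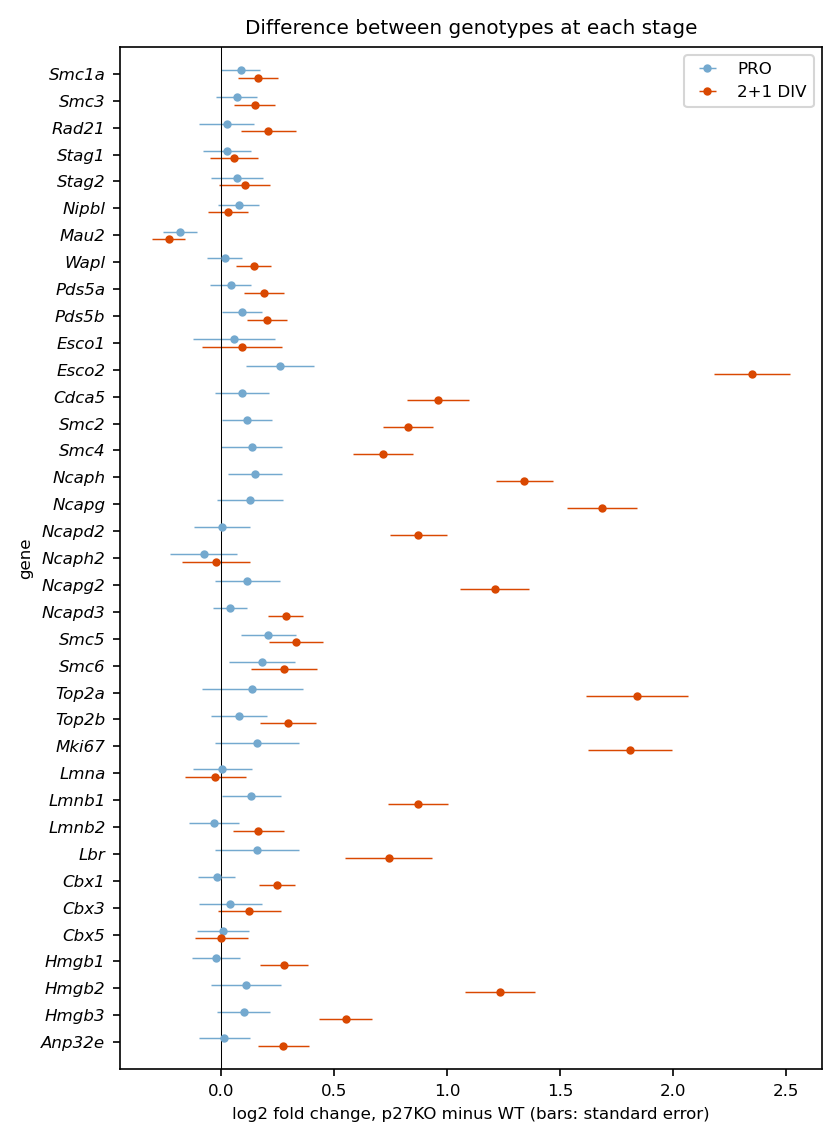
Points give the fitted log2 difference between p27KO and WT for each of the 37 genes in neurospheres (PRO, blue) and at 2 + 1 DIV (orange), with standard errors as bars. In neurospheres all points lie between -0.18 and 0.26, and at 2 + 1 DIV they reach 2.35 for Esco2.

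In neurospheres no difference between the genotypes passed for these genes. None of the 37 passed by edgeR, with 1 at an unadjusted p under 0.05, or by DESeq2, where edgeR called 0.0156% of all genes tested in either direction. The differences ran from -0.18 (Mau2) to 0.26 (Esco2), with a median of 0.078. Esco2 was at 38.8, 34.6 and 38.3 CPM in WT and 48.1 and 39.5 CPM in p27KO neurospheres, and Ncaph at 108, 112 and 111 CPM in WT and 128 and 113 CPM in p27KO neurospheres. Ncapg was at 91.8 and 69.6 CPM and Mki67 at 889.5 and 954 CPM in p27KO neurospheres. The groups of Ncapg and Mki67 overlapped with WT. Those of Esco2 and Ncaph did not, but only narrowly, at 38.8 against 39.5 CPM and at 112 against 113 CPM. With 3 and 2 libraries such a separation carries little weight, and neither gene passed.

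The balance between related genes is given per kb of exon and without a test, because the pairs were picked with the values known. Exon length counts every annotated exon of a gene, such as 9013 bases for Top2a and 14613 for Top2b. It is not the length of the transcript expressed. The size of a ratio therefore depends on the annotation, while its change between libraries does not. It shifted by stage in both genotypes for some pairs and not for others. Top2a over Top2b was 2.9 and 3 in p27KO neurospheres and 0.858 and 0.751 at 2 + 1 DIV, above the 0.175 to 0.382 of WT at that stage. Esco2 over Esco1 was 1.3 and 1.72 and then 0.235 and 0.199, against 0.0361 to 0.0564 in WT. Hmgb2 over Hmgb1 was 0.877, 0.744 and 0.872 in WT neurospheres, 0.294, 0.213 and 0.269 in WT at 2 + 1 DIV and 0.505 and 0.502 in p27KO at 2 + 1 DIV. Stag1 over Stag2 lay between 0.331 and 0.363 in all 10 libraries. Pds5b over Pds5a was 1.61 to 1.75 in the neurosphere libraries and 1.78 to 1.94 in those at 2 + 1 DIV, without overlap. The mean of Ncapg over Ncapg2 was 0.84 in p27KO neurospheres and 1.21 at 2 + 1 DIV, but 0.834 and 0.87 in WT. That of Hmgb3 over Hmgb1 was 0.735 and 0.756 in WT and 0.802 and 0.915 in p27KO cells. The mean of Lmnb1 over Lmnb2 was lower at the later stage in WT cells (8.78 and then 5.96), and it was 9.82 and 9.76 in p27KO cells. Smc4 over Smc2 was also higher at the later stage in p27KO cells, at 1.02 and 0.95 in p27KO neurospheres and 1.76 and 1.76 at 2 + 1 DIV.

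**Figure D5:**
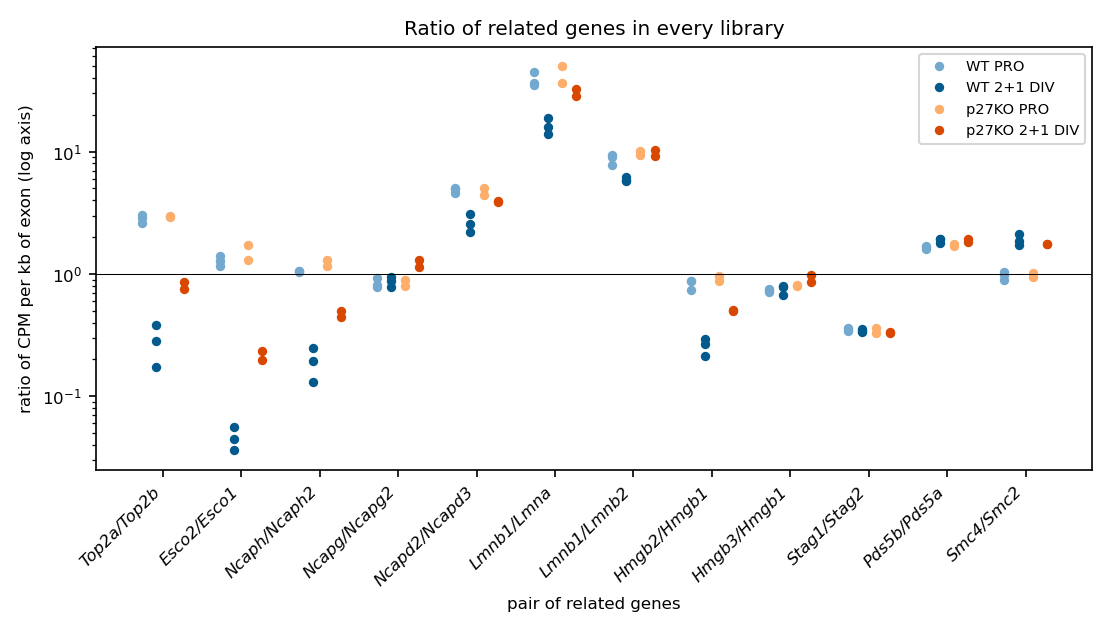
Each point is the ratio of 2 related genes in a library, from CPM per kb of exon, on a log axis, with the colours giving genotype and stage and a line at equal levels. Top2a/Top2b, Esco2/Esco1, Ncaph/Ncaph2 and Hmgb2/Hmgb1 drop at 2 + 1 DIV with the WT libraries lowest, Smc4/Smc2 rises in both genotypes, and Stag1/Stag2 stays level.

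Of 61 further genes of the same complexes and structures, 56 were tested. The meiotic cohesin genes Smc1b, Rec8 and Rad21l did not pass the filter, nor did Dscc1 and Eid3. In WT cells 42 of the 56 fell and 6 rose, with a median of -0.93, and in p27KO cells 40 fell and 3 rose, with a median of -0.84. Over all genes tested, 33.9% fell and 33.5% rose in WT, and 30.2% fell and 27.5% rose in p27KO cells. The deepest WT falls were in Chaf1b, a subunit of the histone chaperone CAF-1, from 39.2, 42.9 and 43.3 CPM to 1.17, 0.705 and 1.62 CPM (-5.17 ± 0.22, adjusted p = 9.14e-08), and in Rmi2, of the complex that dissolves recombination intermediates, from 8.55, 10.1 and 12.4 CPM to 0.305, 0.124 and 0.474 CPM (-5.08 ± 0.36, adjusted p = 1.75e-06). At 2 + 1 DIV the WT libraries held 6, 3 and 12 counts of Rmi2, each below 1 CPM. Rmi2 therefore passed the filter only through the other groups. The sizes of its fall and of its genotype difference below are uncertain. The largest rises were in Stag3, a cohesin subunit best known from meiosis, from 4.53, 4.27 and 4.33 CPM to 9.97, 9.04 and 6.6 CPM (0.95 ± 0.21, adjusted p = 0.00296), and in Hdac8, the X-linked deacetylase that recycles cohesin (0.60 ± 0.10, adjusted p = 0.000378). By group, 10 of 12 cohesion partners, all 6 SMC5/6 partners, all 4 condensation partners and all 6 heterochromatin partners tested fell in WT cells, and 4 of 11 nuclear envelope genes did, a share near that of all genes. In the order of these groups, the members' median changes were -2.81, -0.78, -2.14, -1.62 and -0.094.

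Between genotypes at 2 + 1 DIV, 12 of the 56 were higher in p27KO cells and none lower, where 1.91% of all genes tested were higher and 0.124% lower. They were Sgo1 (1.40 ± 0.24) and Sgo2a (2.01 ± 0.23), which protect centromeric cohesin, the separase Espl1 (1.53 ± 0.28), the replication-fork factors Wdhd1 (0.74 ± 0.13) and Timeless (0.78 ± 0.15), Rmi2 (2.45 ± 0.41), the chromokinesins Kif4 (1.61 ± 0.16) and Kif22 (1.23 ± 0.21), the CAF-1 subunits Chaf1a (0.73 ± 0.12) and Chaf1b (1.28 ± 0.25), the nucleosome-binding Hmgn2 (0.57 ± 0.092) and the lamin-binding Tmpo (0.85 ± 0.14). Kif4 (ENSMUSG00000034311, chrX:100625737-100727214), an X-linked motor gene whose protein works with condensin on the chromosome axis, was the only one of the 56 to pass in the interaction, in the direction in which 0.389% of all genes tested passed. It was at 83.1, 91.5 and 96.2 CPM in WT neurospheres and 11.8, 7.5 and 10.2 CPM at 2 + 1 DIV, and at 98.6 and 86.5 CPM in p27KO neurospheres and 32.4 and 26.7 CPM in p27KO cells at 2 + 1 DIV (interaction 1.54 ± 0.23, adjusted p = 0.0237). It no longer passed with the replicate block (1.55, adjusted p = 0.0566; 6.39e-08 to 0.181 over all alternatives), though it passed with the p27KO numbers crossed, or without any one of 8 of the 10 libraries, WT 2 + 1 DIV libraries 1 and 2 being the other two. In neurospheres none of the 56 passed by edgeR (3 at an unadjusted p under 0.05), and 1 did by DESeq2. With only the 2 + 1 DIV libraries in the fit none of the 56 passed at that stage, and 3 and 2 passed without p27KO library 1 and 2.

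Many of these genes moved together, and their promoter sequences were compared as a description. The cell-cycle homology region (CHR) is the element through which the MuvB complexes act on genes of the later cell cycle, CCAAT boxes are bound by NF-Y, and E2F sites by the E2F family. Windows of 250 bases before to 50 bases after the start, from RefSeq (GRCm38.p6), were found for 30 of the 37 genes, with more than 1 start for some; none was used for Esco1, Esco2, Lmnb1, Nipbl, Rad21, Smc4 and Stag2. Both strands were searched for CHR as TTTGAA or TTCGAA, for CCAAT, and for E2F as TTTCCCGC, TTTCGCGC, TTTGCCGC or TTTGGCGC. No word contains another. The 30 genes had 37 windows. A CHR was present in 16 of these windows (16 genes) against 19.2% of all 32851 windows, CCAAT in 17 (17 genes) against 37.4%, and an E2F word in 7 (7 genes) against 2.26%. Of the 13 genes higher in p27KO cells at 2 + 1 DIV, 10 had a window and 9 of them held a CHR, all but Ncaph. Among the other 24 genes, 20 had a window and 7 held a CHR (Anp32e, Lbr, Mau2, Ncapd3, Ncaph2, Pds5b and Smc6). CCAAT was held by 7 of the 10 and by 10 of the 20, and an E2F word by 3 of the 10 and 4 of the 20. These are counts of letter matches, with no test and no measure of binding. The 150 bases before the start of Mki67 (chr7:135716380-135716529, minus strand), Top2a (chr11:99024190-99024339, minus strand), Hmgb2 (chr8:57511693-57511842, plus strand), Smc2 (chr4:52439071-52439220, plus strand) and Ncaph (chr2:127133955-127134104, minus strand) are given 5′ to 3′ on the strand of the gene. They show the CHR before the start of 4 genes that were higher in p27KO cells at 2 + 1 DIV, the nearest one 23 bases away in Top2a, 30 in Hmgb2, 98 in Mki67 and 145 in Smc2, and Ncaph as the gene of that set without one. No annotated exon overlaps these stretches, and capitals mark CHR and CCAAT matches in either orientation.
Mki67: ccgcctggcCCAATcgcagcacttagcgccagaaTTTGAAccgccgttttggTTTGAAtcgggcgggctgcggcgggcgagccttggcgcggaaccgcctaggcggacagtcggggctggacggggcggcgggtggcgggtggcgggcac
Top2a: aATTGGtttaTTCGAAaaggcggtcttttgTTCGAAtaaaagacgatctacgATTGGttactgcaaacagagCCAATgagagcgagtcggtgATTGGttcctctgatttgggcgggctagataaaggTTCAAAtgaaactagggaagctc
Hmgb2: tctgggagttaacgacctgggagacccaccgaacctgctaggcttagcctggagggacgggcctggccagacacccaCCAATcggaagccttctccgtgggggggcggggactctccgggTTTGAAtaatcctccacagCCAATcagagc
Smc2: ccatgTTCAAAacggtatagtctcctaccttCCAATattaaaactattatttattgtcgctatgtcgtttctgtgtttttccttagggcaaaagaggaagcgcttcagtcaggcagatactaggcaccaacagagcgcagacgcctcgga
Ncaph: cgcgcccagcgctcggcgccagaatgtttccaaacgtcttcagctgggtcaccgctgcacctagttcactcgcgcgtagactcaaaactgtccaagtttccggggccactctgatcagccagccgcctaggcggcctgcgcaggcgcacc
Mki67 has 2 CHR words in its window, 116 and 98 bases before the start, with CCAAT boxes upstream of both. Over the whole window Top2a has 4 CHR words and 6 CCAAT matches, Hmgb2 has 2 and 4, and Smc2 has 2 and 1, some of them outside the printed stretch. Top2b, which passed in none of the 5 comparisons, had 2 CCAAT matches and no CHR in its window. Its p27KO change passed only without p27KO neurosphere library 1 (0.39, adjusted p = 0.0493; up to 0.739 over all alternatives).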

How the data were processed

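According to the study's methods, the authors aligned the reads with STAR to the Ensembl mouse transcriptome and estimated counts per gene with RSEM; the submitters' processing notes also name FastQC, Trimmomatic, cutadapt and DESeq2 and the build GRCm38. The deposited values are expected counts as whole numbers, not normalized. Versions, annotation release and strand setting are not given in the sources used here, so that overlapping antisense transcripts cannot be separated. cDNA was amplified with the Ovation RNA-seq System V2.

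Positions and exon lengths came from GENCODE vM21 by gene identifier. The exon length of a gene is the union of all its annotated exons, so that levels per kb compared between genes depend on the annotation. The filter dropped a gene if 4 or more of the 10 libraries had it below 1 CPM, which left 12859. edgeR 4.0.16 in R 4.3.3 fitted all libraries as 4 groups (TMM, robust quasi-likelihood, two-sided, Benjamini-Hochberg over all genes, threshold 0.05). CPM was computed from each library's own total and leaves TMM factors out. The smallest library held 19190068 counts, and n is 2 or 3 a group. Genes named in full are those called in the interaction or between genotypes at 2 + 1 DIV, those that did not fall in WT, and their relatives; from the list of 61 related genes, those called between genotypes and the 2 largest rises and falls. The 37 genes, the lists, the tests and the promoter words were chosen with earlier results of these data known. The paired check correlated deviations from the group means over genes: in WT, libraries with the same number gave 0.255, 0.331 and 0.418, and all others -0.222 to -0.1. The numbers therefore met the criterion for pairing in WT; in p27KO the same-number value was -0.181. The main fit had no block, and the paired fit is an alternative, given beside a result where it changes the call. The steps were tested on simulated data. Alternatives were DESeq2 1.42.0, its size factors, 2 other filters, thinning to 19190068 counts, a non-robust fit, only the groups compared, the replicate block within genotype and each library left out. Tables and plots used Python 3.11.15, pandas 2.3.3 and matplotlib 3.10.9.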

Additional observations from a re-analysis of the deposited data

Results flagged for a closer look

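Genes whose change from neurospheres to 2 + 1 DIV differed between WT and p27KO cells by the interaction test were singled out. The difference, p27KO change minus WT change on the log2 scale, was 2.09 for Esco2, 1.19 for Ncaph, 1.56 for Ncapg and 1.65 for Mki67, and among the further genes of these structures 1.54 for Kif4. In all 5 the p27KO libraries at 2 + 1 DIV were above all WT libraries of that stage. The 5 genes were singled out from these same values, so that this gives no further support. It also held for genes that did not pass, such as Smc1a, Smc3 and Wapl, and its share over all genes tested was not counted. Mki67 and Kif4 no longer passed with the replicate block by number but passed with the p27KO numbers crossed, and none of the 5 passed without any one of the 4 p27KO libraries or of WT neurosphere libraries 2 and 3.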

How the results depend on the processing

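The counts of the 37 genes called in either stage change and in neurospheres, and of the 56 further genes in either stage change, stayed within 1.5 times under every alternative run. In the interaction, 4 of the 37 became 11 with DESeq2 and 7 with no filter, and 0 to 6 with 1 library left out; of the 56 genes, 1 became 9 with DESeq2, 2 with no filter and 0 to 3 with 1 library left out. Between genotypes at 2 + 1 DIV, 13 of the 37 became 3 with only the groups compared and 7 to 13 with 1 library left out, and 12 of the 56 became 0 and 2 to 12. Between genotypes at 2 + 1 DIV, DESeq2 called 15 of the 37, adding Lbr and Ncapd3. Up to 17 of the 56 passed there under other alternatives. In neurospheres DESeq2 called 1 of the 56 where edgeR called none. Fits that left 1 library in a group assume that it varies like the other groups. With DESeq2 the interaction called 157 genes in all against 50, genotype at 2 + 1 DIV 631 against 262 and genotype in neurospheres 40 against 2; with only the groups compared, genotype at 2 + 1 DIV called 39. The causes were not tested.

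With the replicate block, 4 of the 37 passed in the interaction, of which 3 were shared with the fit without it, and 14 in the genotype comparison at 2 + 1 DIV; besides Mki67, Kif4, Hmgb2, Lbr, Stag1 and Smc5, given above, it changed no other call among the 37 genes and Kif4, and 13 of the 56 passed between genotypes at 2 + 1 DIV. In that comparison the block is nested in genotype. With the p27KO numbers crossed, chosen after seeing the data, 5 of the 37 and 2 of the 56 passed in the interaction. Uncalled values changed sign for Top2b in WT (0.0028 with DESeq2 or its size factors, 0.0022 with the block or the crossed block, -0.0591 to 0.0918 with 1 library left out). The p27KO change of Smc3 ran from -0.194 to 0.0295, of Stag2 from -0.323 to 0.0604 and of Pds5b from -0.163 to 0.00389 with 1 library left out, each positive only without p27KO neurosphere library 1. Depth limits few of the 37 genes, and the lowest was Cdca5 in WT at 2 + 1 DIV, with 38 to 61 counts per library. Among the further genes, Rmi2 was lower, with 6, 3 and 12 counts in the WT libraries of that stage.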
